A study of Mus musculus with 16 samples.

Results

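The genes for STING itself, for the kinases and adaptors around it and for the enzymes and carriers that set the amount of its ligands were followed in bone marrow-derived dendritic cells (BMDCs) exposed to c-di-GMP, a cyclic dinucleotide made by bacteria. The 8 genes were Tmem173, Tbk1, Ikbke, Trex1, Enpp1, Slc19a1, Ticam1 and Traf3. They were chosen by name for their place in the pathway, and each had a single row among the 23356 genes of the deposited table. RNA-seq had been done on BMDCs of 4 genotypes, wild-type (WT), Tmem173-/-, Irf1-/- and Irf3/7-/-, all with a C57BL/6 strain background. The marrow was cultured with GM-CSF and IL-4 for 6 days, and the cells were then left untreated (NT) or given c-di-GMP (CDG) at 25 ug/ml for 18 h, the dose given in the labels. This gave 8 conditions with 2 labelled samples in each, 16 in all. Tmem173-/- is a knockout of the STING gene, Irf1-/- of the transcription factor gene Irf1, and Irf3/7-/- a double knockout of Irf3 and Irf7. The BMDCs were the cells that floated or adhered loosely at the end of the culture. The labels give no age for the mice, while the study's methods state a range in weeks and sex-matched mice for all its experiments.

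STING is a membrane protein of the endoplasmic reticulum that binds cyclic dinucleotides, moves to the Golgi and there recruits the kinase TBK1, which phosphorylates STING and then IRF3. IKKε, encoded by Ikbke, is a close relative of TBK1 and shares many of its substrates. TREX1 is an exonuclease that removes DNA from the cytosol and so limits the activation of cGAS and STING. ENPP1 hydrolyses the cyclic dinucleotide cGAMP outside cells, and SLC19A1 is the reduced folate carrier, which can also bring cyclic dinucleotides into cells. TICAM1, also called TRIF, is the adaptor of Toll-like receptors that leads to TBK1, and TRAF3 is a ubiquitin ligase and scaffold that joins several receptor adaptors to TBK1 and IKKε.

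Expression is given as FPKM, the number of fragments scaled by transcript length and by the mapped fragments of the library, which is a level per length and can be compared between genes. The authors combined the replicates, so each condition had a single FPKM with the lower and upper bound of an interval, written below in parentheses, and no spread between cultures could be computed. Differences were taken on the log2(FPKM + 0.1) scale, where the pseudocount of 0.1 makes the change of low genes appear smaller. A gene entered a comparison if either condition reached 1 FPKM, and it was called higher or lower when it differed more than 2-fold and the authors' intervals did not overlap. The interval of a log2 difference was computed from the authors' bounds read as a nominal 95% interval. It covers the error modelled by Cuffdiff and is not a test over replicates, and no p-value is given.

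The targeted genes were read in every condition. Tmem173 was low in both Tmem173-/- conditions, as given below. Irf1 was at 25.9 FPKM in untreated and 116 FPKM (82.8 to 149) in treated Irf1-/- cells. In WT cells it was at 149 FPKM (113 to 185) and 245 FPKM (176 to 314). The interval of treated Irf1-/- cells thus overlapped that of untreated WT cells and lay below that of treated WT cells. The Tmem173-/- cells had 24.1 and 23.3 FPKM of Irf1, near the level of untreated Irf1-/- cells. Irf7 was at 1.07 and 4.97 FPKM in untreated and treated cells labelled Irf3/7-/-, against 15.2 and 687 FPKM in WT cells. Irf3 was at 7.74 FPKM in untreated cells labelled Irf3/7-/-, against 19.9 FPKM in WT, but at 20.2 FPKM (14.8 to 25.7) in the treated cells with that label, against 15.8 FPKM (11.6 to 20.0) in treated WT. A value for the whole gene also counts exons outside a deletion, so it does not settle the genotype, and Irf3 went against the label in the treated cells only. All values of the treated Irf3/7-/- and treated Irf1-/- cells are therefore values of the cells with those labels.

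The cultures also differed in markers of other cell types. Of the 10 dendritic cell markers, Itgax was between 135 and 369 FPKM, Cd74 between 3336 and 4983 FPKM, Batf3 between 56.8 and 241 FPKM and Zbtb46 between 11.6 and 23.0 FPKM, while Flt3 stayed between 1.17 and 2.75 FPKM and Cd209a at 3.10 FPKM or less. H2-Ab1 and H2-Aa were at 278 and 364 FPKM in untreated Irf1-/- cells, against 650.1 and 1031 FPKM in untreated WT. With c-di-GMP, Ccr7 went from 265 to 1257 FPKM and Mgl2 from 1115 to 184 FPKM in WT cells. The summed FPKM of this list lay between 6321 and 9104. The sum of the 7 neutrophil markers in the table was 20003 and 14533 in untreated and treated Tmem173-/- cells, and between 1407 and 4015 in the other conditions. The sum of 7 NK cell markers was 2.50 and 2.04 in Tmem173-/- cells, where Gzma was listed at 0, and 21.5 and 31.2 in Irf1-/- cells, against 737 and 711 in WT and 784 and 2318 in the cells labelled Irf3/7-/-. Most of the rise in the Irf3/7-/- cells was Gzma (315 to 899.8 FPKM) and Gzmb (362 to 1242 FPKM). Ncr1, Nkg7 and Prf1 rose too, while Klrb1c (4.05 to 0.618 FPKM) and Eomes (13.6 to 6.36 FPKM) fell. The sum of 7 T cell markers had the same order of genotypes. It was 1.41 and 1.43 in Tmem173-/-, 6.08 and 9.85 in Irf1-/-, 68.8 and 48.8 in WT and 95.5 and 167 in Irf3/7-/- cells. Of its members, Cd4 stayed at 0.154 FPKM or less, and Cd5 fell from 2.91 to 1.45 FPKM in Irf3/7-/- cells. The 8 macrophage markers summed to between 59.9 and 429.6, the 6 basophil and mast cell markers to between 56.3 and 260.4, the 5 B cell markers to between 3.34 and 10.7 and the 5 plasmacytoid dendritic cell markers to between 8.23 and 13.8. In such bulk samples, fewer cells of a type and less RNA per cell cannot be told apart. The part of these differences in the results on the 8 genes was not tested. They move with genotype, so that marker differences and genotype cannot be told apart. Some sums also move with treatment, since the neutrophil sum was 4015 in untreated and 1905 in treated WT cells. Most of that fall was S100a8 (2531 to 1105 FPKM) and S100a9 (1350.4 to 643 FPKM). Elane, Mpo and Ltf were also lower, while Camp (18.8 to 37.0 FPKM) and Ngp (93.4 to 104 FPKM) were higher, so the list did not move as a whole.

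**Figure D1:**
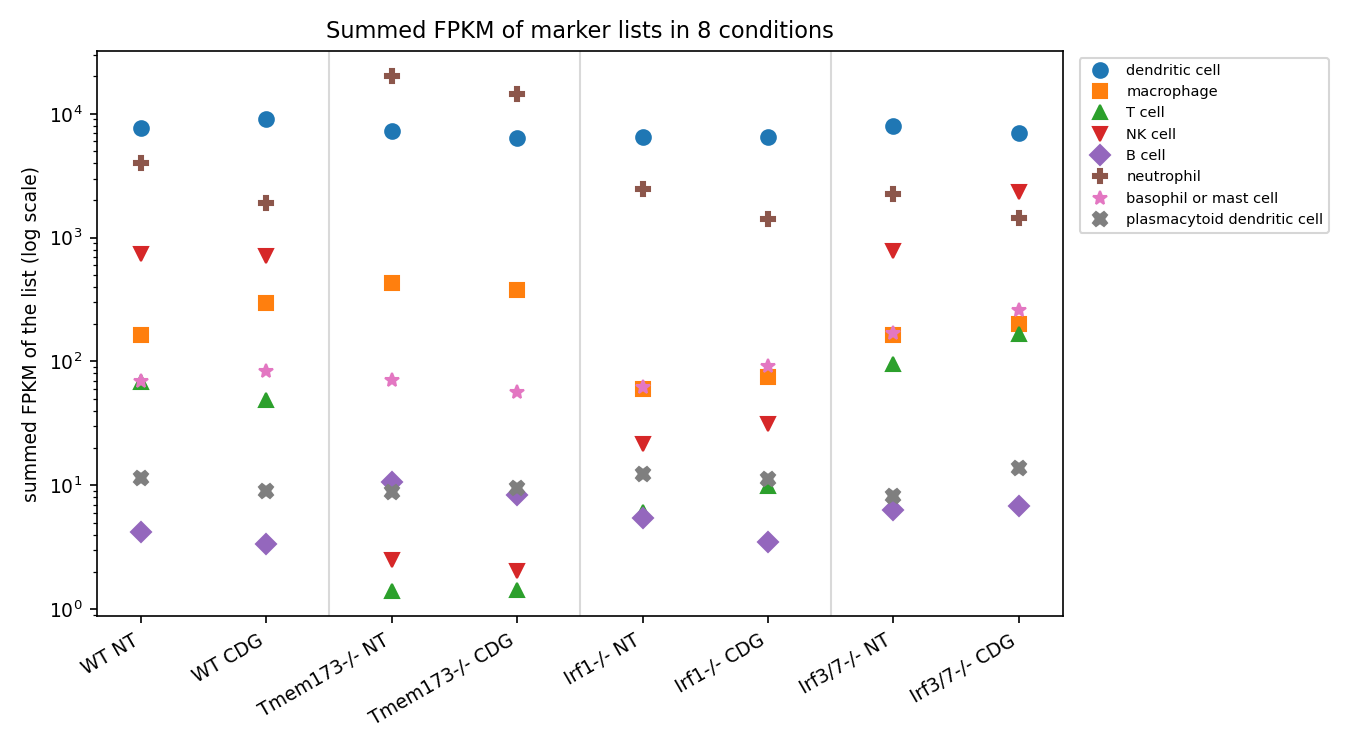
Summed FPKM of 8 marker lists (points, on a log axis) in the 8 conditions. The neutrophil list reached 20003 in untreated Tmem173-/- cells, and the NK cell list lay at 2.50 and 2.04 in Tmem173-/- cells against 737 and 711 in WT cells.

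Of the 8 genes, 5 were called in at least 1 of 11 comparisons of conditions. Slc19a1 was called in 6, Trex1 in 4, Tbk1 in 3, and Tmem173 and Ticam1 in 2 each. Ikbke, Traf3 and Enpp1 were called in none, and Enpp1 was below 1 FPKM in all 8 conditions, so that 7 of the 8 genes were tested. In treated WT cells, the order by FPKM was Trex1, Tmem173, Tbk1, Ikbke, Ticam1, Traf3, Slc19a1 and Enpp1, and only Tbk1 and Ikbke had intervals that overlapped their neighbour in the order. In untreated WT cells Tmem173 stood first and Trex1 second with overlapping intervals, as did the pairs of Ikbke and Tbk1, Ticam1 and Traf3, and Traf3 and Slc19a1.

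The DNA upstream of these genes is shown for 3 genes with different outcomes: Tbk1, which rose with c-di-GMP in WT cells, Slc19a1, which fell, and Traf3, which was not called. The sequences are the 250 bases before an annotated start in RefSeq (GRCm38.p6), on the coding strand from 5′ to 3′. They lie at chr10:121586795-121587044 (minus strand) for Tbk1, chr10:77032962-77033211 (plus strand) for the second annotated start of Slc19a1 and chr12:111166120-111166369 (plus strand) for Traf3. The Slc19a1 window lies within the gene as deposited, which begins at 77032739. The window before its first start overlaps annotated exons of Slc19a1 and is not printed. Capitals mark a match to 1 of the 5 motifs searched.
Tbk1: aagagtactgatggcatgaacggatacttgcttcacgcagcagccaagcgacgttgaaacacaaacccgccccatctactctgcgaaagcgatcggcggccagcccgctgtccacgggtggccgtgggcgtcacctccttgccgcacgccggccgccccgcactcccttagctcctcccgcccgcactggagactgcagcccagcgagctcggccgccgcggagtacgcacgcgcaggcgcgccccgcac
Slc19a1: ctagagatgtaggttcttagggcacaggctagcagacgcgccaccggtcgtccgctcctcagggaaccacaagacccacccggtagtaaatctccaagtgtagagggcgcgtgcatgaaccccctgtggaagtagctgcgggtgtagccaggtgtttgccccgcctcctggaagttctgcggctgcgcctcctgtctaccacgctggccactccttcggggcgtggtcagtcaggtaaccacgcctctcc
Traf3: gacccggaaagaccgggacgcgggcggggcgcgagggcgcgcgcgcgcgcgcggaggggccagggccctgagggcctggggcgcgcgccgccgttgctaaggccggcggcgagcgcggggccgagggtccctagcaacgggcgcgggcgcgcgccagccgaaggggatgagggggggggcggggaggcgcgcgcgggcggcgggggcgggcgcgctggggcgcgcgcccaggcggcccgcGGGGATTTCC

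The 5 motifs were searched on both strands as GAAA, any 2 bases and GAAA for the interferon-stimulated response element (ISRE), TTCNNNGAA for STAT sites (GAS), GGG, any 2 bases and TTTCC for NF-kB, TGANTCA for AP-1 and CACGTG for the E-box. These were found in 2.98%, 7.02%, 1.41%, 6.75% and 6.02% of 32851 windows of that length in all genes. The windows of Tbk1 and Slc19a1 held no match, and that of Traf3 held an NF-kB match in its last bases, from position -10 to -1 before the start. Among 9 windows for 7 of the genes, the other match was an E-box from -135 to -130 in the window of Ticam1, which overlaps exons of that gene and is not printed. A match is a run of letters and does not show that a factor binds there, and its absence says only that these letters are not in this window.

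The STING gene was not called changed by c-di-GMP in any genotype. Tmem173 (chromosome 18, 35733678 to 35740554, positions of the loci as deposited) was at 103 FPKM (77.7 to 128) in untreated and 118 FPKM (89.3 to 146) in treated WT cells, at 77.0 and 97.1 FPKM in Irf1-/- cells and at 86.2 and 80.0 FPKM in Irf3/7-/- cells. The Tmem173-/- cells held 8.97 FPKM (6.62 to 11.3) without and 7.49 FPKM (5.51 to 9.45) with c-di-GMP. All 6 conditions with an intact gene lay within overlapping intervals, and both knockout conditions lay far below them. The log2 difference of treated from untreated cells was 0.19 (-0.30 to 0.69) in WT, 0.33 (-0.16 to 0.83) in Irf1-/- and -0.11 (-0.61 to 0.39) in Irf3/7-/- cells, so an interval that excludes a 2-fold change was obtained in all 3. Treated Irf3/7-/- cells had a log2 difference of -0.56 (-1.05 to -0.07) from treated WT cells, which was not called. The remaining signal in the knockout was still above that of 69.9% of genes in treated Tmem173-/- cells. In the same cells Enpp1, at 0.707 FPKM, stood above 52.4% of genes, so this share does not mark a high level.

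Tbk1, the gene of the kinase that STING recruits, rose with c-di-GMP in WT and Irf1-/- cells, and was also high in treated Irf3/7-/- cells. The gene (chromosome 10, 121546456 to 121586794) went from 25.8 FPKM (19.8 to 31.7) to 56.9 FPKM (43.5 to 70.2) in WT cells, from 20.3 FPKM (15.7 to 24.8) to 46.4 FPKM (35.5 to 57.2) in Irf1-/- cells and from 25.4 FPKM (19.6 to 31.3) to 49.0 FPKM (37.6 to 60.5) in the cells labelled Irf3/7-/-. Without STING the levels were 24.6 FPKM (18.9 to 30.4) and 27.0 FPKM (20.9 to 33.1). The 3 treated conditions with STING stood apart from all 5 others, and among those 5 the intervals overlapped. The log2 change was 1.14 (0.67 to 1.61) in WT and 1.19 (0.72 to 1.66) in Irf1-/- cells, both called higher. In Irf3/7-/- cells it was 0.94 (0.47 to 1.42), with intervals apart but under the 2-fold threshold, and it was not called. The change in Tmem173-/- cells was 0.13 (-0.34 to 0.60).

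Ikbke followed another order of conditions. The gene for IKKε (chromosome 1, 131254602 to 131279563) was highest in Tmem173-/- cells, with 57.5 FPKM (44.2 to 70.8) untreated and 54.6 FPKM (41.9 to 67.2) treated, and lowest in untreated Irf1-/- cells, with 18.8 FPKM (14.5 to 23.1). In WT cells it was at 31.0 FPKM (23.8 to 38.3) and 46.3 FPKM (35.5 to 57.1), in Irf1-/- cells at 35.6 FPKM (27.5 to 43.8) when treated, and in Irf3/7-/- cells at 26.3 FPKM (20.2 to 32.4) and 37.3 FPKM (28.6 to 45.9). None of the 11 comparisons passed the 2-fold threshold. The intervals were nevertheless apart between untreated Tmem173-/- and WT cells, at a log2 difference of 0.89 (0.41 to 1.36), between untreated Irf1-/- and WT cells, at -0.72 (-1.19 to -0.25), and between treated and untreated Irf1-/- cells, at 0.92 (0.46 to 1.38). With c-di-GMP the log2 change was 0.57 (0.10 to 1.05) in WT, 0.50 (0.03 to 0.97) in Irf3/7-/- and -0.08 (-0.55 to 0.40) in Tmem173-/- cells. Untreated Tmem173-/- cells were also those with the highest sums of neutrophil and macrophage markers. The macrophage list was uneven. Cd14 was at 181 FPKM there against 18.5 FPKM in untreated WT cells, and C1qc at 37.4 against 34.1 FPKM. Only Mertk was lower, at 2.83 against 4.89 FPKM. The part of such marker differences in the level of Ikbke was not tested.

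The balance between both kinases therefore differed between conditions. The ratio of Ikbke to Tbk1 FPKM was 2.33 (1.68 to 3.24) in untreated and 2.02 (1.46 to 2.79) in treated Tmem173-/- cells. It was 1.21 (0.868 to 1.67) in untreated and 0.814 (0.585 to 1.13) in treated WT cells, 0.928 and 0.769 in Irf1-/- cells and 1.03 and 0.760 in Irf3/7-/- cells. The interval of the ratio excluded 1 only in the Tmem173-/- conditions. This ratio was chosen after its values were seen and is given as a description.

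**Figure D2:**
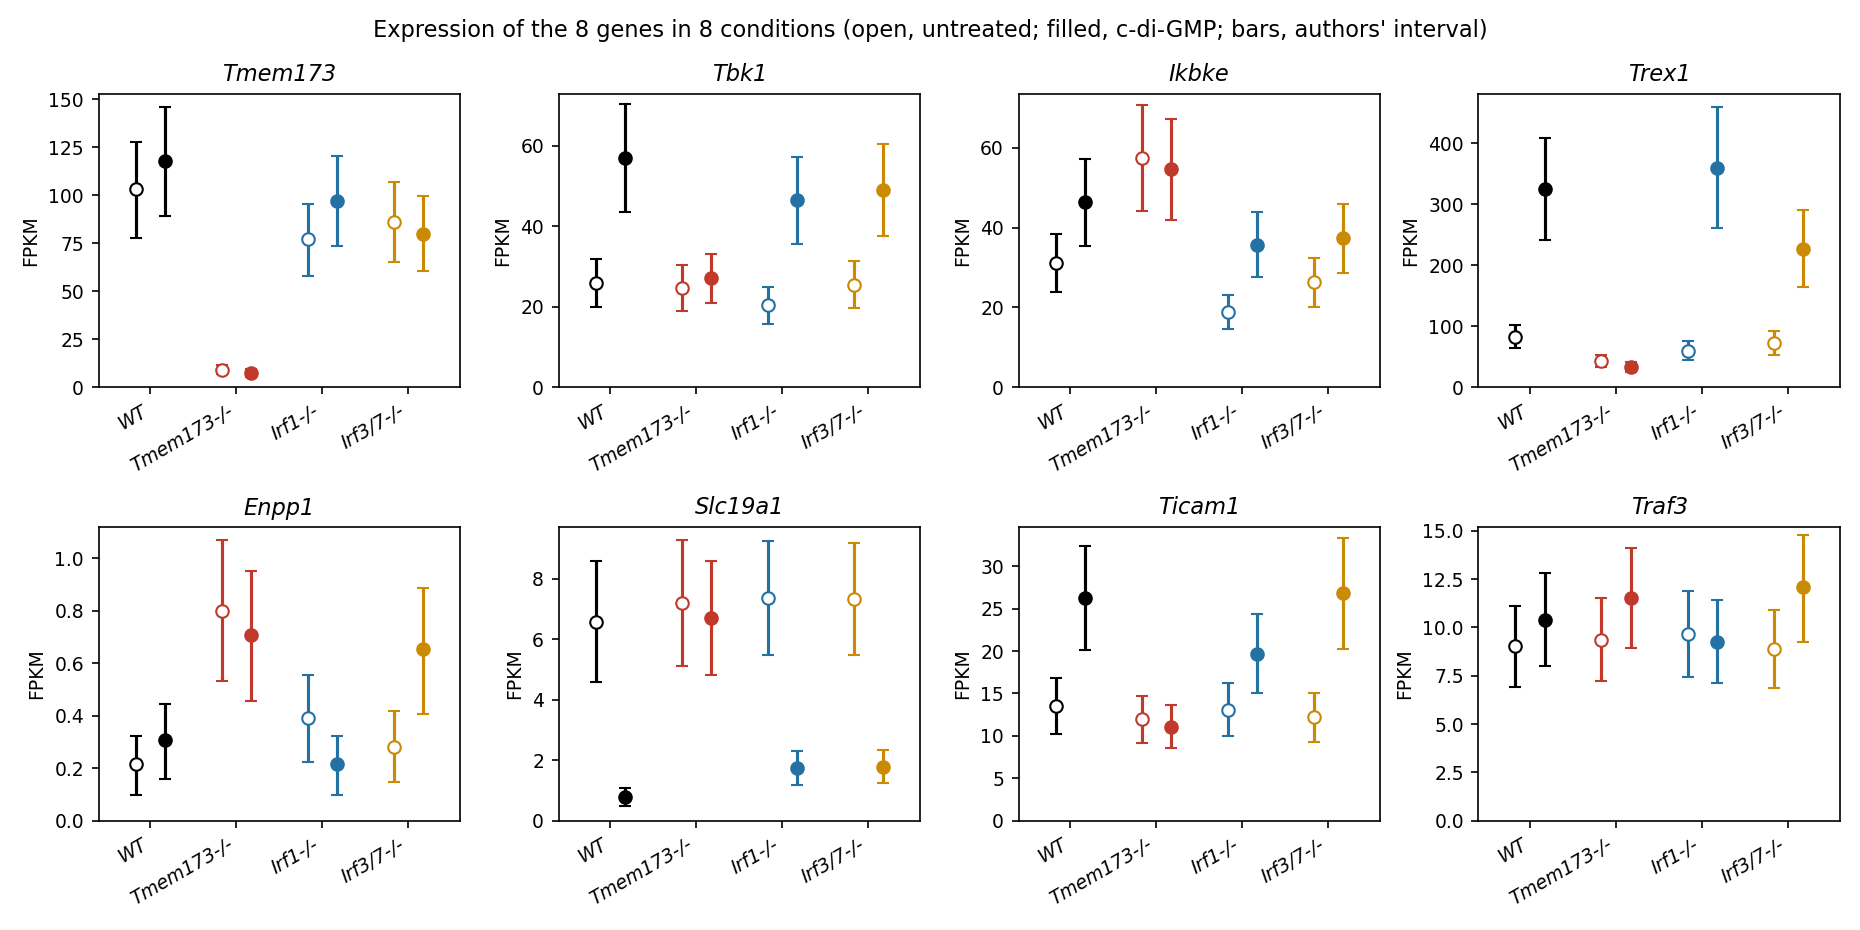
FPKM (linear axes from 0) of the 8 genes in BMDCs of 4 genotypes, untreated (open) or treated with c-di-GMP (filled), with the authors' interval as bars. Trex1 reached 325 FPKM in treated WT and 359.9 FPKM in treated Irf1-/- cells but 33.0 FPKM in treated Tmem173-/- cells, and Slc19a1 fell to 0.784 FPKM in treated WT cells.

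Trex1 had the largest rise of the 8 genes. The DNA exonuclease gene (chromosome 9, 109057932 to 109059723) went from 82.9 FPKM (63.8 to 102) to 325 FPKM (242 to 409) in WT cells, from 59.9 FPKM (44.3 to 75.5) to 359.9 FPKM (261 to 459.7) in Irf1-/- cells and from 72.2 FPKM (53.1 to 91.4) to 227 FPKM (164 to 291) in the cells labelled Irf3/7-/-. Without STING it was at 42.6 FPKM (32.7 to 52.4) untreated and 33.0 FPKM (25.4 to 40.6) treated. The 3 treated conditions with STING lay above all others with overlapping intervals among themselves, and the treated Tmem173-/- cells had the lowest value. In treated WT cells Trex1 stood above 98.7% of all genes. The log2 change was 1.97 (1.47 to 2.47) in WT, 2.59 (2.04 to 3.13) in Irf1-/- and 1.65 (1.10 to 2.21) in Irf3/7-/- cells, all called higher, and -0.37 (-0.84 to 0.10) in Tmem173-/- cells.

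Trex1 was already lower without treatment when STING was missing, with a log2 difference of -0.96 (-1.43 to -0.49) from untreated WT cells and intervals apart, just under the 2-fold threshold. Treated cells labelled Irf3/7-/- and treated Irf1-/- cells differed by -0.66 (-1.23 to -0.10), which was not called. In the annotation, exons of Atrip, a gene of the DNA damage checkpoint, run on the same strand across the bases upstream of Trex1, so reads from both genes may not be fully separated. Atrip itself was listed between 3.15 and 5.18 FPKM in the 8 conditions, with 5.08 FPKM in untreated and 3.21 FPKM in treated WT cells. It lay far below Trex1, and the intervals of treated and untreated WT cells overlapped.

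Slc19a1 was the gene that fell. The carrier gene (chromosome 10, 77032739 to 77050432) went from 6.58 FPKM (4.58 to 8.59) to 0.784 FPKM (0.473 to 1.09) in WT cells, from 7.37 FPKM (5.47 to 9.27) to 1.74 FPKM (1.19 to 2.29) in Irf1-/- cells and from 7.34 FPKM (5.49 to 9.19) to 1.79 FPKM (1.23 to 2.35) in the cells labelled Irf3/7-/-. The Tmem173-/- cells had 7.20 FPKM (5.11 to 9.28) and 6.72 FPKM (4.83 to 8.59). The 3 treated conditions with STING lay below the 5 others, which all overlapped, and treated WT cells lay below both other treated cultures with STING. The log2 change was -2.92 (-3.58 to -2.25) in WT, -2.02 (-2.58 to -1.45) in Irf1-/- and -1.97 (-2.53 to -1.42) in Irf3/7-/- cells, all called lower, and -0.10 (-0.67 to 0.48) in Tmem173-/- cells. Treated Irf1-/- and treated Irf3/7-/- cells were both called higher than treated WT cells, by 1.06 (0.40 to 1.72) and 1.10 (0.44 to 1.76). Both calls rest on a level below 1 FPKM in treated WT cells and were lost with a pseudocount of 1 FPKM, at log2 differences of 0.62 and 0.65, and with a minimum of 5 FPKM.

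Enpp1 was barely detected. The gene of the cGAMP hydrolase (chromosome 10, 24641411 to 24712102) was at 0.215 FPKM (0.0987 to 0.321) in untreated and 0.308 FPKM (0.160 to 0.444) in treated WT cells, at 0.391 and 0.214 FPKM in Irf1-/- cells and at 0.281 and 0.652 FPKM in Irf3/7-/- cells. The Tmem173-/- cells had the highest values, 0.797 FPKM (0.530 to 1.07) untreated and 0.707 FPKM (0.456 to 0.950) treated. These values were under the minimum of 1 FPKM and were not tested. As a description, the log2 difference of untreated Tmem173-/- from untreated WT cells was 1.51 (0.84 to 2.18) and the intervals were apart, and treated Irf3/7-/- cells stood 1.26 (0.57 to 1.95) above treated Irf1-/- cells.

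Ticam1, the TRIF adaptor gene (chromosome 17, 56269462 to 56276767), rose close to the threshold. It went from 13.5 FPKM (10.2 to 16.8) to 26.3 FPKM (20.1 to 32.4) in WT cells, from 13.1 FPKM (9.93 to 16.2) to 19.7 FPKM (15.1 to 24.4) in Irf1-/- cells and from 12.2 FPKM (9.26 to 15.1) to 26.8 FPKM (20.3 to 33.4) in the cells labelled Irf3/7-/-. The levels in Tmem173-/- cells were 12.0 FPKM (9.20 to 14.7) and 11.1 FPKM (8.54 to 13.6). Treated WT and treated Irf3/7-/- cells stood above all untreated conditions, and treated Irf1-/- cells overlapped with untreated Irf1-/- cells. Only the log2 change in Irf3/7-/- cells, 1.13 (0.64 to 1.63), was called higher. That in WT cells was 0.96 (0.47 to 1.44), with intervals apart, and that in Irf1-/- cells 0.59 (0.11 to 1.07). A call in 1 genotype and not in another does not show a difference between them, and the differences of these changes from WT were not called.

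Traf3 (chromosome 12, 111166548 to 111267148) was the steadiest of the 8 genes. Its lowest value was 8.87 FPKM (6.87 to 10.9) in untreated and its highest 12.1 FPKM (9.26 to 14.8) in treated cells labelled Irf3/7-/-, a ratio of 1.36. The other 6 conditions lay between 9.02 and 11.5 FPKM, and all 8 intervals overlapped. Its log2 change with c-di-GMP was 0.21 (-0.26 to 0.67) in WT, 0.29 (-0.16 to 0.75) in Tmem173-/-, -0.06 (-0.53 to 0.40) in Irf1-/- and 0.44 (-0.02 to 0.90) in Irf3/7-/- cells.

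Read across the genes, c-di-GMP changed 3 of the 7 tested in WT cells, with Tbk1 and Trex1 higher and Slc19a1 lower, and over all 11201 genes tested the share called was 20.5%, with 10.5% higher and 9.96% lower. In Irf1-/- cells the same 3 genes were called in the same directions, against 17.5% of all genes, 9.67% higher and 7.81% lower. In the cells labelled Irf3/7-/-, Trex1 and Ticam1 were called higher and Slc19a1 lower, against 17.9% of all genes, 10.2% higher and 7.68% lower. Without STING, 0 of the 7 genes were called, where 0.0552% of all genes were, 6 of 10867, with 0.0460% higher and 0.00920% lower. With so few genes tested, nothing about them as a group is drawn from these counts. The median log2 change over the 8 genes was 0.47 in WT, 0.46 in Irf1-/-, 0.72 in Irf3/7-/- and -0.10 in Tmem173-/- cells. Over all genes tested it was 0.00, 0.00, 0.00 and -0.02. The median over the 8 genes includes Enpp1, which was not tested and had a change of 0.98 in Irf3/7-/- cells. Over the 7 tested genes the middle value was 0.57 in WT, 0.59 in Irf1-/-, 0.50 in Irf3/7-/- and -0.10 in Tmem173-/- cells. The order of the genotypes with STING thus depends on Enpp1.

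**Figure D3:**
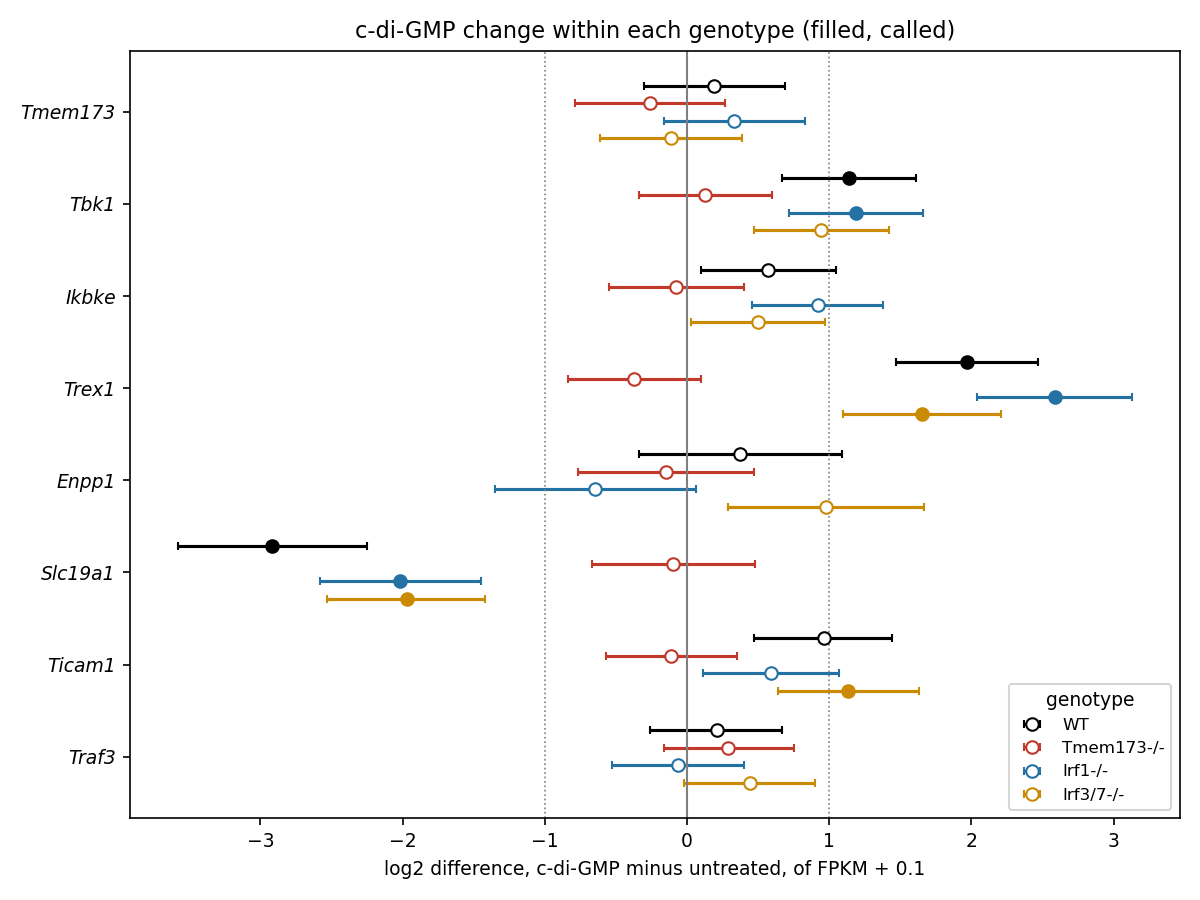
Log2 difference between c-di-GMP-treated and untreated cells for the 8 genes in each genotype, with the interval computed from the authors' bounds. Filled points were called, and dotted lines mark a 2-fold change. No point was filled for Tmem173-/-, and Slc19a1 fell by 2.92 in WT cells.

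Treated cells were then compared between genotypes. These 3 comparisons share the treated WT condition, and so are not independent of each other. Against treated WT cells, treated Tmem173-/- cells had lower Tmem173 (log2 difference -3.96), Tbk1 (-1.07, interval -1.54 to -0.60), Trex1 (-3.30, -3.79 to -2.80) and Ticam1 (-1.24, -1.71 to -0.77), and higher Slc19a1 (2.95, 2.31 to 3.59). These were 5 of 7 tested genes, of which Tmem173 is the deleted one, and 26.3% of 11318 genes were called, 12.9% higher and 13.5% lower. Ikbke (0.24) and Traf3 (0.14) were not called. Treated Irf1-/- and treated Irf3/7-/- cells each differed from treated WT cells in 1 of the 7 genes, Slc19a1, which was higher in both. Of all genes, 7.56% were called in Irf1-/- cells, 2.65% higher and 4.91% lower, and 7.30% in Irf3/7-/- cells, 4.61% higher and 2.69% lower. No tested gene was called between treated Irf3/7-/- and treated Irf1-/- cells, against 9.84% of all genes, 6.62% higher and 3.22% lower.

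Among untreated cells, which share the untreated WT condition, Tmem173 was the only one of the 7 tested genes called in Tmem173-/- cells, with a log2 difference of -3.51 (-4.02 to -2.99), where 11.0% of all genes were called, 5.04% higher and 5.95% lower. No tested gene was called in untreated Irf1-/- or Irf3/7-/- cells, where the share over all genes was 4.78%, with 1.26% higher and 3.52% lower, and 2.04%, with 1.17% higher and 0.863% lower. Slc19a1 lay between 6.58 and 7.37 FPKM, Traf3 between 8.87 and 9.68 FPKM, and Ticam1 between 12.0 and 13.5 FPKM in the 4 untreated genotypes. The starting levels of these 3 genes thus overlapped in every genotype, while those of Trex1 and Ikbke were apart between Tmem173-/- and WT cells.

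Whether the effect of c-di-GMP itself differed between a knockout and WT was read from the difference of both log2 changes, with z computed from the intervals, a Benjamini-Hochberg q under 0.05 over all genes, and more than 2-fold. In Tmem173-/- cells the change was called different for 4 of the 7 genes, where 19.4% of 11493 genes were, 9.59% with a higher and 9.76% with a lower change. The knockout change minus the WT change was -1.01 (-1.67 to -0.34) for Tbk1, -2.34 (-3.02 to -1.65) for Trex1, -1.06 (-1.73 to -0.39) for Ticam1 and 2.82 (1.94 to 3.70) for Slc19a1. For Ikbke it was -0.65 (-1.32 to 0.02) and not called. In Irf1-/- cells and in the cells labelled Irf3/7-/-, the change differed from WT for none of the 7 genes, where 2.45% of all genes were called in Irf1-/- cells, 1.28% higher and 1.17% lower, and 3.34% in Irf3/7-/- cells, 1.85% higher and 1.49% lower. The 3 contrasts share the WT change.

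The intervals bound what could have been missed in these knockouts. For Tbk1 the difference from the WT change was 0.05 (-0.61 to 0.72) in Irf1-/- and -0.19 (-0.86 to 0.47) in Irf3/7-/- cells, so that a 2-fold difference in either direction lay outside both intervals. For Trex1 it was 0.62 (-0.12 to 1.35) and -0.32 (-1.06 to 0.43), and a 2-fold difference lay within each interval. For Slc19a1 it was 0.90 (0.03 to 1.77) and 0.94 (0.08 to 1.81), intervals that exclude 0 before adjustment over all genes. For Ticam1 it was -0.36 (-1.05 to 0.32) and 0.18 (-0.51 to 0.87). A difference that was not called therefore does not show an equal response for Trex1, Slc19a1 and Ticam1.

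**Figure D4:**
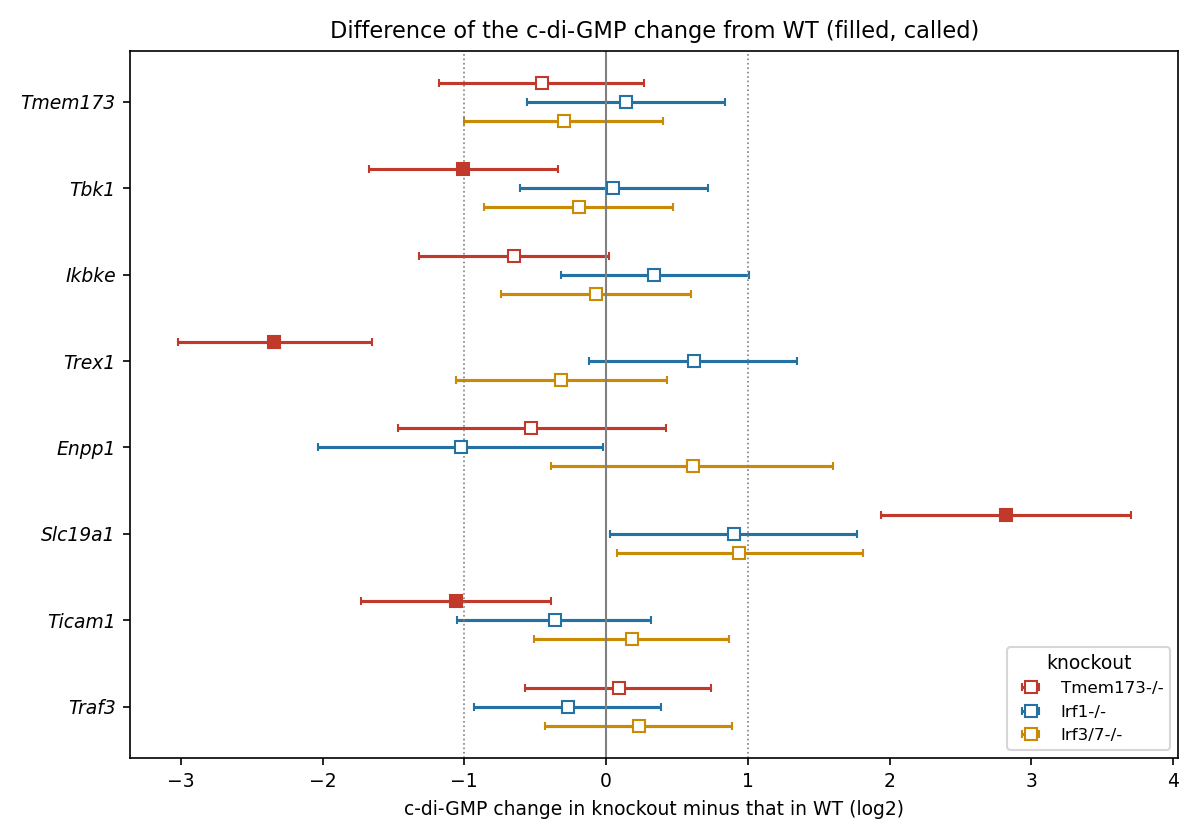
Difference between the c-di-GMP change in each knockout and that in WT (log2) for the 8 genes, with intervals from the authors' bounds. Filled points were called, and all 4 of them, Tbk1, Trex1, Ticam1 and Slc19a1, are in Tmem173-/- cells.

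Other genes of the pathway were taken from 6 lists set by role, 134 genes of which 133 were in the table. In WT cells c-di-GMP raised 16 and lowered 7 of the 118 tested, beside 20.5% of all genes called, and the median log2 change was 0.18 against 0.00 over all genes. Without STING 0 of 111 were called, beside 0.0552% of all genes, 6 of 10867, so this count says nothing particular about the lists. In Irf1-/- cells 16 rose and 7 fell of 114, beside 17.5% of all genes, and in Irf3/7-/- cells 17 rose and 5 fell of 118, beside 17.9%, so that these shares lay near the background. Of the 16 that rose in WT cells, 12 also rose in Irf1-/- cells (75.0% of each list) and 12 in Irf3/7-/- cells (75.0% of the WT list and 70.6% of the Irf3/7-/- list). Over all genes, the shares of the WT list were 68.2% and 66.3%, and those of the knockout lists 74.2% and 67.8%. Of the 7 that fell, 5 also fell in Irf1-/- cells (71.4% of each list) and 3 in Irf3/7-/- cells (42.9% and 60.0%), beside 60.3% of the WT list in both and 77.2% and 77.7% of the knockout lists over all genes. These comparisons share no condition.

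Among 19 tested scaffolds and partners of TBK1 and IKKε, 2 rose in WT cells and none fell, where 10.5% of all genes were called higher and 9.96% lower. Tank, a scaffold that binds both kinases, measured 40.2 FPKM (30.4 to 50.1) untreated and 88.4 FPKM (67.2 to 109.7) treated (log2 change 1.13), and also rose in Irf1-/- (1.25) and Irf3/7-/- cells (1.20). Tax1bp1, a ubiquitin-binding autophagy receptor, went from 66.9 FPKM to 180.2 FPKM (1.43), and rose in Irf1-/- cells (1.15). Its change in Irf3/7-/- cells was 0.96 and not called. Dok3, an adaptor protein, was higher in treated Tmem173-/- than in treated WT cells, with 22.8 against 10.6 FPKM (1.10), and was already at 26.5 FPKM in untreated Tmem173-/- cells. In the cells labelled Irf3/7-/-, 4 of the 19 rose and 1 fell, where 10.2% and 7.68% of all genes did.

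Of 31 tested genes for STING trafficking and modification, 2 rose and 1 fell in WT cells, below the 10.5% and 9.96% of all genes. Usp18, an ISG15 protease that restrains interferon signalling, measured 42.3 FPKM (32.5 to 52.0) untreated and 404 FPKM (307 to 500.4) treated (log2 change 3.25), and was at 6.04 and 5.73 FPKM in Tmem173-/- cells. Slc15a3, a lysosomal peptide and histidine transporter, went from 104 FPKM to 232 FPKM (1.15), and its changes in Irf1-/- (0.49) and Irf3/7-/- cells (0.94) were not called. The fall in this list was Nlrc3, a regulator of STING, which was named after its values were seen and went from 2.07 to 0.755 FPKM. It was at 4.48 and 3.32 FPKM in Irf3/7-/- and 0.0774 and 0.0835 FPKM in Tmem173-/- cells. Its order of genotypes was that of the T and NK cell marker sums, whose part was not tested. With c-di-GMP the NK and T cell sums went from 737 to 711 and from 68.8 to 48.8 in WT cells. Most of the NK sum was Gzma (349 to 329 FPKM) and Gzmb (321 to 336 FPKM). Klrb1c (1.35 to 0.151 FPKM), Eomes (8.02 to 2.24 FPKM) and Cd5 (1.63 to 0.273 FPKM) fell more. Of the 7 NK cell markers 2 were called lower in WT cells, and of the 7 T cell markers 1, with 0 called higher in either list. In the cells labelled Irf3/7-/- both sums rose, from 784 to 2318 and from 95.5 to 167, while Klrb1c, Eomes and Cd5 fell, as given above. The other genes of the list, among them Surf4 and Copa of the route between endoplasmic reticulum and Golgi, were not called in WT cells.

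Of 13 tested nucleases and related genes, 3 were called higher and 2 lower in WT cells, beside 10.5% and 9.96% of all genes. Adar, which edits double-stranded RNA, measured 28.5 FPKM (21.3 to 35.7) untreated and 60.3 FPKM (45.5 to 75.0) treated (log2 change 1.08), and rose in Irf1-/- (1.25) and Irf3/7-/- cells (1.17). Dnase2a, the lysosomal DNase, measured 47.3 FPKM (34.7 to 59.2) untreated and 17.9 FPKM (12.9 to 22.8) treated (log2 change -1.40), and fell in Irf1-/- (-1.30) and Irf3/7-/- cells (-1.12). Trex1 and Dnase2a, which act on DNA in the cytosol and in the lysosome, thus moved in opposite directions in these 3 genotypes. Rnaseh2c, a subunit of RNase H2, fell from 35.0 to 17.0 FPKM (-1.04). Rnaset2b rose from 1.68 to 18.2 FPKM (3.36) but shares reads with the near-identical Rnaset2a, and in 4 of the 8 conditions its FPKM lay outside its own deposited interval, so its values are uncertain.

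The list for transport and hydrolysis of cyclic dinucleotides held 3 rises and 3 falls among 14 tested in WT cells, beside 10.5% and 9.96% of all genes. The rises were Enpp2, Enpp4 and Enpp5, and the falls Slc46a3, Slc19a2 and Itgam. The list includes relatives of Enpp1 and Slc19a1, and the values do not show that these act on cyclic dinucleotides. Enpp4, a relative of Enpp1 in the same enzyme family, measured 2.56 FPKM (1.75 to 3.33) untreated and 12.6 FPKM (9.14 to 15.9) treated (log2 change 2.25), and was called lower in treated Irf1-/- than in treated WT cells, with 5.07 FPKM (log2 difference -1.29). It was also lower in Irf1-/- cells before treatment, with 0.489 FPKM (-2.18), and its change with c-di-GMP there was 3.14. Itgam, the CD11b integrin chain, fell from 164 FPKM to 77.9 FPKM (-1.07) and was at 266 and 355 FPKM in Tmem173-/- cells. Itgam is also carried by neutrophils, whose marker sum was highest there, and their part was not tested. P2rx7, an ATP-gated channel, was higher in treated Irf3/7-/- than in treated WT cells, with 11.5 against 4.20 FPKM (1.43). It was also called higher in treated Tmem173-/- cells, with 8.90 FPKM (1.07).

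Among 29 tested adaptors of the TRIF and TRAF families and their regulators, 5 rose in WT cells and none fell, beside 10.5% and 9.96% of all genes. Peli1, a ubiquitin ligase of Toll-like receptor signalling, measured 9.08 FPKM (6.25 to 11.3) untreated and 48.1 FPKM (34.1 to 61.1) treated (log2 change 2.39), and was at 16.8 FPKM in treated Irf3/7-/- cells, called lower than treated WT (log2 difference -1.51). Traf1 went from 64.2 to 206 FPKM (1.68) and Trafd1, a TRAF-type zinc finger protein, from 59.2 to 162 FPKM (1.45), and both also rose in Irf1-/- and Irf3/7-/- cells. Ticam2, the partner adaptor of Ticam1, was at 10.9 FPKM in untreated and 8.21 FPKM in treated WT cells, not called, and was higher in treated Tmem173-/- cells, with 16.7 FPKM (1.02). Traf4 was higher in treated Irf3/7-/- than in treated WT cells, with 13.9 against 4.99 FPKM (1.46).

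The sensors and DNA-binding helicases held 1 rise and 1 fall among 12 tested in WT cells, near the 10.5% and 9.96% of all genes. Zbp1, a sensor of Z-form nucleic acids, had 111 FPKM (75.9 to 146) without and 264 FPKM (177 to 372) with c-di-GMP, called higher at 1.24, and was at 20.6 and 18.3 FPKM in Tmem173-/- cells. Untreated Irf1-/- cells were as low, at 20.0 FPKM (-2.47 from untreated WT, called lower), and Zbp1 rose there to 219 FPKM (3.44). Xrcc6, the Ku70 subunit of DNA-dependent protein kinase, measured 12.3 FPKM (9.09 to 15.5) untreated and 3.82 FPKM (2.71 to 4.95) treated (log2 change -1.66), and was higher in treated Tmem173-/- than in treated WT cells (1.57). No test compared the 6 lists with each other.

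**Figure D5:**
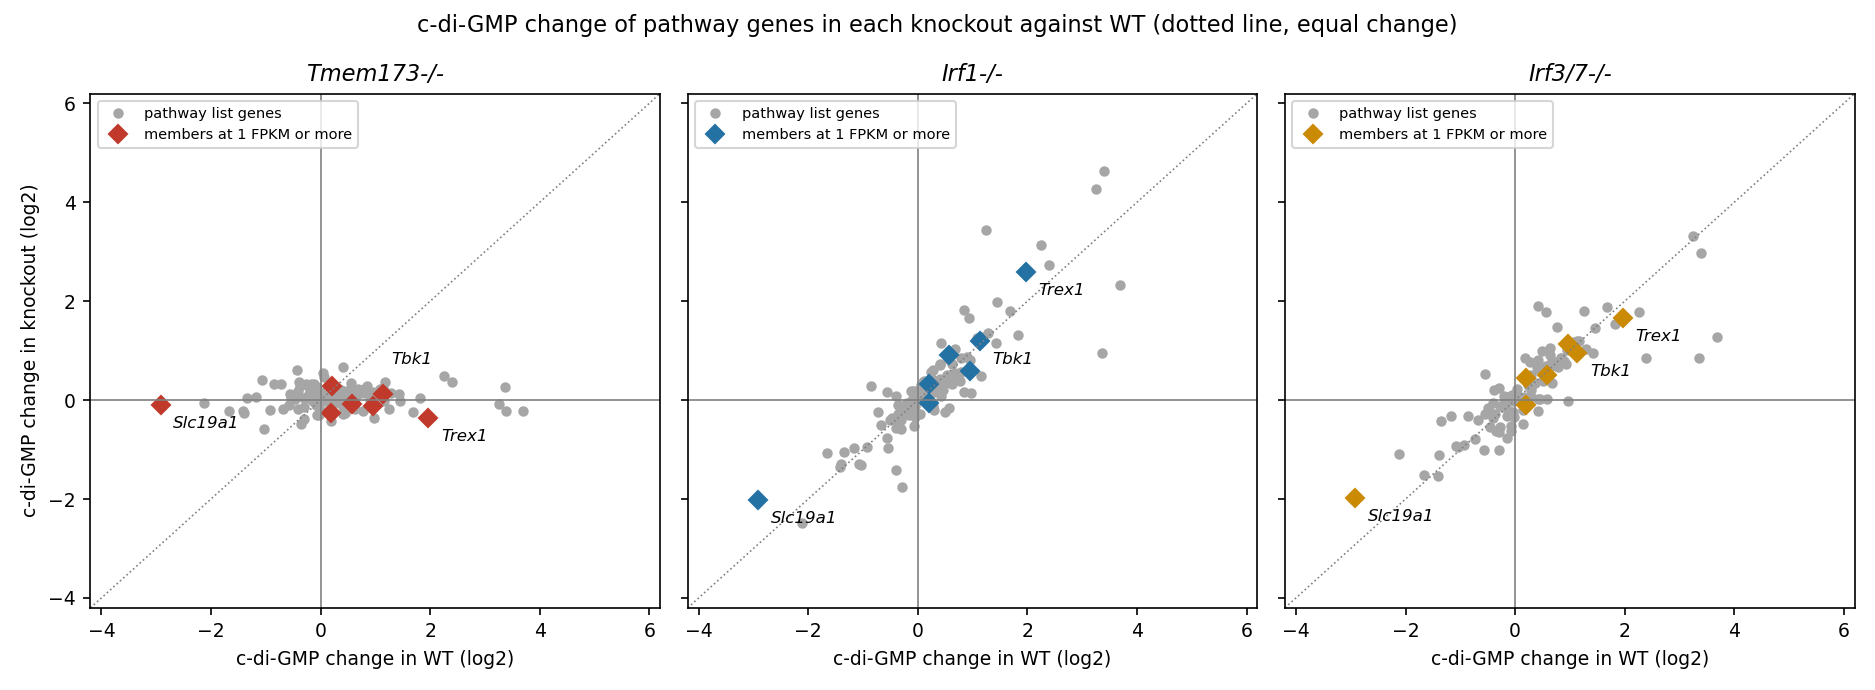
C-di-GMP change (log2) of pathway list genes (grey) and of the 7 members with at least 1 FPKM (coloured) in each knockout, plotted against the change in WT cells. The dotted line marks an equal change. In Tmem173-/- cells, where 0 of 111 list genes and 0.0552% of all genes were called, the points lie along the horizontal line at 0.

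Genes whose pattern over the 8 conditions was most like that of each called gene were found by the root mean square difference of centred log2(FPKM + 0.1) among 7382 genes with at least 10 FPKM in one condition. For Tbk1 they were Lgals8 (0.10), which encodes galectin-8, Setdb2 (0.12) and the nuclear receptor gene Ppard (0.12). For Ticam1 they were Sirt2 (0.07), Pnrc1 (0.10) and Arfrp1 (0.10). For Trex1 they were Sepw1 (0.18), Stat2 (0.19) and the costimulatory ligand gene Cd86 (0.20). Stat2, a subunit of the interferon-activated factor ISGF3, went from 42.4 to 155 FPKM in WT and was at 14.4 and 15.4 FPKM in Tmem173-/- cells. For Slc19a1 they were Dkc1 (0.17), Cad (0.18) and Cdc20 (0.20), the genes of dyskerin, of an enzyme of pyrimidine synthesis and of an activator of the mitotic ubiquitin ligase. Cad went from 20.0 to 2.75 FPKM in WT cells and was at 16.4 and 19.6 FPKM in Tmem173-/- cells. Tmem173 had no gene as close, with Htr7 (0.37), Lad1 (0.38) and Gimap9 (0.40) nearest. These distances are over 8 combined conditions and give no error.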

How the data were processed

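The data are RNA-seq of BMDCs in 8 conditions, 16 labelled samples. Per the methods, stranded mRNA libraries were sequenced and the authors ran Cuffdiff (version 1.06 in the submitters' processing notes). The authors deposited a table of FPKM values per condition, with replicates combined, interval bounds and a status. For the aligner, annotation and strand setting of that run, nothing is given in the sources used here. Submitters' notes name build mm9, but 21283 of 21519 loci overlap the gene of the same symbol in RefSeq GRCm38.p6, so positions are read as GRCm38. The study's legends give another dose than the labels. The treated Tmem173-/- column is named GDP, read as c-di-GMP. A set of 4 columns of another knockout was not used.

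The 8 genes, the lists and the tests were chosen with earlier results of these data known. The columns were mapped to groups by name. Values were compared as log2(FPKM + 0.1) in 11 comparisons of conditions and 3 of changes. A call needed over 2-fold, intervals that do not overlap, at least 1 FPKM and status OK. Replicates being combined, no test over replicates could be made. Genes of the lists were named when called with at least 10 FPKM: up to 3 largest rises and 2 largest falls in WT, and the largest rise and fall in each treated knockout against treated WT, together with the 8 genes, the targeted genes and the 3 genes nearest in pattern to each called gene. Depth cannot be read from FPKM. For 4710 genes with at least 10 FPKM in all conditions, the median distance from FPKM to its bounds was 25.2% to 25.7% of the FPKM. Alternatives were pseudocounts of 1 and 0.01, no minimum or 5 FPKM, a fold of 1.5, median centring, the fold alone, and z with q under 0.05. Upstream sequences come from RefSeq (GRCm38.p6), and exon overlaps from GENCODE M21. No protein sequence was printed. Scripts ran in python 3.11.15 with matplotlib 3.10.9, statsmodels 0.14.6, scipy 1.17.1, pandas 2.3.3 and numpy 2.4.6.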

Additional observations from a re-analysis of the deposited data

Results flagged for a closer look

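The response to c-di-GMP differed between Tmem173-/- and WT cells for 4 of the genes, by the test of the difference of both log2 changes. It was -1.01 for Tbk1, -2.34 for Trex1, -1.06 for Ticam1 and 2.82 for Slc19a1, knockout minus WT. The values of Tbk1 and Ticam1 lay just past the 2-fold threshold. The error in this test is the one modelled by Cuffdiff and not a spread between cultures, and neutrophil and NK cell marker sums also differed between both genotypes (20003 against 4015 and 2.50 against 737 in untreated cells), whose part was not tested.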

How the results depend on the processing

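Under the alternatives, 80 counts of called members stayed within 1.5 times the reported count and 8 did not, and the 18 counts of members whose change differed from WT did. With a pseudocount of 1 FPKM, and again with a minimum of 5 FPKM, the count was 0 in place of 1 for treated Irf1-/- against treated WT cells and 0 in place of 1 for treated Irf3/7-/- against treated WT cells, where Slc19a1 (1.06 and 1.10) was at 0.62 and 0.65 with the pseudocount of 1. Without a minimum, Enpp1 was added, giving 2 in untreated Tmem173-/- against untreated WT cells and 1 in treated Irf3/7-/- against treated Irf1-/- cells. With a fold of 1.5 the counts were 3 in untreated Tmem173-/- and 1 in untreated Irf1-/- against untreated WT cells. No called difference of a member turned its direction under any alternative run, and 260 of the log2 differences of members kept their side of the threshold or moved little. The 6 genes called over the whole table in Tmem173-/- cells were 1, 11, 10, 56, 83 and 20 with a pseudocount of 1, of 0.01, no minimum, a fold of 1.5, the fold alone and z. With a minimum of 5 FPKM, the whole-table counts of 838, 818, 1221, 527, 224 and 1106 (treated Irf1-/- and Irf3/7-/- against treated WT, untreated Tmem173-/-, Irf1-/- and Irf3/7-/- against untreated WT, treated Irf3/7-/- against treated Irf1-/-) were 538, 460, 800, 323, 112 and 723. With a pseudocount of 1 FPKM, 818 was 536 and 224 was 118, and with a fold of 1.5 the latter was 350. Of pathway list genes, with a fold of 1.5, 22 called within Irf3/7-/- cells were 38, and 5 and 10 in treated Irf1-/- and Irf3/7-/- against treated WT cells were 10 and 16. Among untreated cells, 8 in Irf1-/- were 5 with a pseudocount of 1 and 3 with a minimum of 5 FPKM, and 2 in Irf3/7-/- were 0 with each. Where a minimum or a fold changed a count, its own construction sets the direction, and no other cause was tested. Condition medians lay within 0.04 of untreated WT in log2. No paired analysis was possible because the authors combined the replicates, and for the same reason no replicate could be left out. FPKM does not show depth, so that low genes such as Enpp1 are limited by their intervals alone.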
